A study of Mus musculus with 53 samples.

Results

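The cells described here are T1 pre-HSCs, the type 1 precursors of haematopoietic stem cells, sorted from the aorta-gonad-mesonephros (AGM) region of mouse embryos at embryonic day 11 and labelled wildtype. They were chosen by label and cell number: cells 13 to 22 without cell 19, which gave 9 of the 10 wildtype T1 pre-HSCs, of the 22 T1 pre-HSCs in the same table and of the 48 single-cell RNA libraries of the series. The series compares these cells with 12 T1 pre-HSCs labelled KO and holds 26 adult bone marrow HSCs and 5 methylation libraries, none of which enter the values below. The genotype label of the wildtype cells is mH19 flDMR/+, so these cells carry a floxed copy of the H19 differentially methylated region, and no Cre is named for them. Transcripts were measured in each cell by a template-switching method after the cell had been picked by hand and deformed cells had been set aside. No embryo, litter, sex or sort is named, so the 9 cells count as 1 sample and the spread over cells given below is a description of these cells, with no test.

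T1 pre-HSCs arise in the wall of the dorsal aorta by the endothelial-to-haematopoietic transition. They still carry endothelial proteins such as CD31 and VE-cadherin and already carry c-Kit, show CD201 (the product of Procr) at their surface, and lack CD45, which appears at the later T2 stage. They divide and mature in the AGM and then seed the fetal liver as stem cells.

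Of 14833 genes in the table, 14809 were described. Their values are RPKM, read density per transcript length and per mapped read of the cell, and a gene's level here is the mean of log2(RPKM + 1) over the 9 cells. A gene counted as detected in a cell at 1 RPKM or more. The median cell had 4160 detected genes, with a lowest value of 2060 in cell 13 and a highest of 5698 in cell 18. Sequencing depth is unknown for these files, and a gene listed at 0 can be absent, not captured or not estimated, which cannot be told apart. Over genes in 5 or more cells, the Spearman correlation between pairs of cells, as a description across genes, ran from 0.20 for cells 13 and 17 to 0.64 for cells 18 and 22, the 2 cells with the most detected genes.

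The label was checked first against 12 markers of T1 pre-HSCs, 11 of which are listed. Their summed level ran from 285 to 1191 RPKM in 7 cells, with 5 to 10 of the 11 detected, but was 5.37 RPKM in cell 13 and 4.31 RPKM in cell 14, with 2 of 11 detected in each. Cells 13 and 14 therefore go against their label at the transcript level, and the counts of genes by number of cells, of on/off genes and of list members in every cell are also given for the other 7 cells, a choice made after these values were seen. Procr was at 0 in cell 13 and 1.82 RPKM in cell 14, and the lowest of the other 7 cells had 93.1 RPKM. The 7 cells did not overlap with cells 13 and 14 for this gene. Procr is itself among the markers by which cells 13 and 14 were set apart, so this is not separate support. The share of all genes that split the cells in this way is not given here.

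Some endothelial genes were also low in cells 13 and 14. Of 30 listed endothelial and arterial genes, cells 13 and 14 each held 4, against 12 to 19 in the other cells. Egfl7, which encodes a protein secreted by endothelial cells, ran from 0 in cell 13 and 1.22 RPKM in cell 14 to a median of 1741 and a highest value of 3550 RPKM in cell 22. Cldn5, a tight junction protein of endothelium, had a median of 219 RPKM, with 0 in cell 13, 0.697 in cell 14 and 1015 in cell 17. Outside cells 13 and 14, Egfl7 never went below 393 RPKM and Cldn5 never below 147 RPKM. Only 4 of the 30 listed genes were in all 7 of these cells. The share of all genes that split the cells in this way is not given here, and cell 13 had the fewest detected genes. Ecscr, an endothelial cell-surface regulator, reached 813 RPKM in cell 18 and was at 0 and 4.95 RPKM in cells 13 and 14. The mean level of Procr was 6.13 (SD 3.17, 9 cells) and 7.66 (SD 0.91) over the 7 cells, and that of Egfl7 was 8.46 (SD 4.57) and 10.71 (SD 1.04). For Procr, the change follows in part from the choice of the 7 cells, which used this gene.

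Over the 7 cells, Cdh5, Pecam1 and Kit spread more (SDs 1.56, 2.81 and 1.83) than Procr. Cdh5, which encodes VE-cadherin, was detected in 7 of 9 cells, with a median of 17.0 and a highest value of 60.9 RPKM in cell 22. Pecam1, which encodes CD31, was detected in 6 of 9 cells (median 18.8, highest 90.6 RPKM in cell 16), and was under 0.1 RPKM in cells 17 and 20, which had Procr at 205 and 93.1 RPKM. Kit was detected in 5 of 9 cells (55.6%, exact Clopper-Pearson 95% interval 21.2 to 86.3%, which covers counting error only), with a median of 5.16 and a highest value of 25.0 RPKM in cell 18. Low-level transcripts of the sort proteins were thus missing from some cells that held the other markers. Itga2b, which encodes CD41, was detected in 3 cells and reached 499 RPKM in cell 17, against 2.79 and 12.6 RPKM in cells 16 and 22. Ptprc, which encodes CD45, was listed at 0 in 8 cells and had 18.4 RPKM in cell 22. Cd34 was at 1.56 RPKM in cell 15 and at 0 elsewhere.

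**Figure D1:**
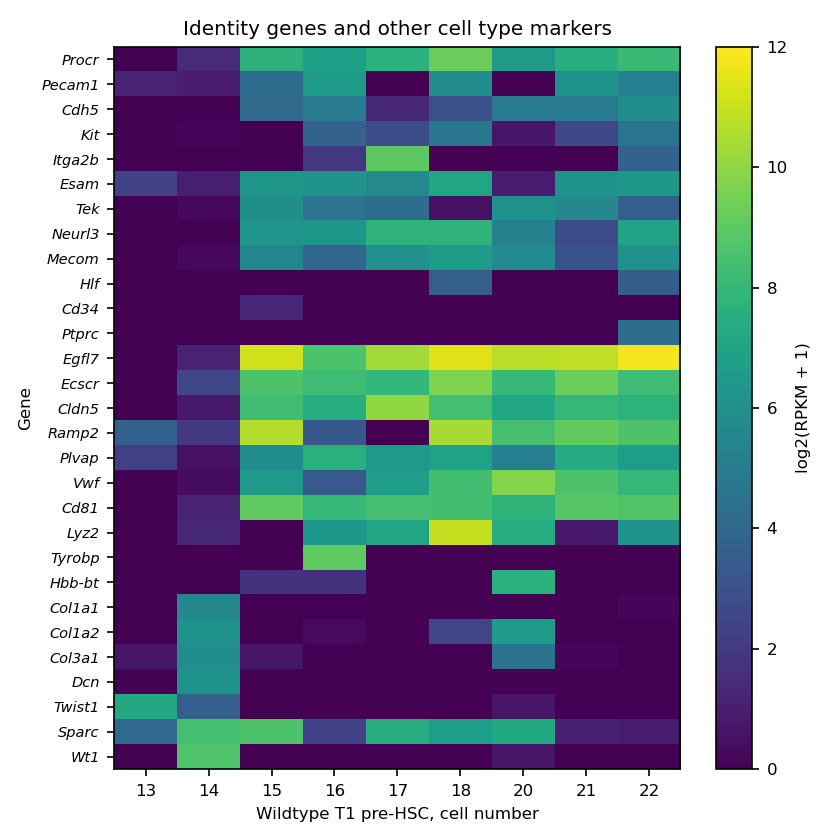
Level of identity genes and of markers of other cell types in each of the 9 cells, as log2(RPKM + 1) by colour; each column is a cell and each row a gene. The endothelial rows are near 0 in cells 13 and 14, Col1a1 and Wt1 stand out in cell 14, and Col1a2 and Col3a1 in cells 14 and 20.

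Among regulators of the lineage, Mecom, a zinc finger factor of stem cells, was detected in 7 of 9 cells with a median of 44.0 and a highest value of 93.8 RPKM. Neurl3, a ubiquitin ligase gene whose transcript marks haemogenic endothelium, was detected in the same number of cells (median 74.1, highest 224 RPKM). Both were under 0.21 RPKM in cells 13 and 14, and both are among the markers by which these cells were set apart. Hlf, a stem cell transcription factor, was detected in cells 18 and 22 at 11.3 and 10.6 RPKM and was at 0 in the other cells.

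To show the starts of genes that separate these cells, the bases just upstream of the RefSeq transcript start are given for Procr, Neurl3 and Cldn5 on build GRCm38.p6. Capitals mark matches to 4 short motifs searched on both strands: CCGGAAG (the core of many ETS factor sites), TATAAA (the TATA box), CCAAT (a box bound by NF-Y) and, as the GC box, GGGCGG. Neurl3 held the TATA box and, on the other strand, the ETS core. Cldn5 held the CCAAT box and the GC box, both on the other strand, and Procr held none of the 4 in these 100 bases.
Procr, chr2:155751117-155751216, plus strand: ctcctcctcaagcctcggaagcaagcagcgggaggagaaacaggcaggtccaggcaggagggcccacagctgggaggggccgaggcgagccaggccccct
Neurl3, chr1:36273426-36273525, minus strand: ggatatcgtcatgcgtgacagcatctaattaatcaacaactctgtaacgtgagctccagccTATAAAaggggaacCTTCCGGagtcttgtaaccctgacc
Cldn5, chr16:18776747-18776846, plus strand: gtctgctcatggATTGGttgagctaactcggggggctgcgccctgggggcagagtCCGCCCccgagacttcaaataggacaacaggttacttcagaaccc

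Markers of other cell types were read from the lists for 11 further types. Cell 14 held Col1a1, Col1a2, Col3a1 and Dcn, matrix genes of mesenchyme, at 45.7, 67.5, 58.3 and 71.6 RPKM, and Wt1, a factor of the urogenital ridge and coelomic lining, at 414 RPKM. Cell 20 held Col1a2 at 95.3 RPKM, the highest of the 9 cells, with Col3a1 at 21.4 RPKM and Fbn1, which encodes the microfibril protein fibrillin, at 12.9 RPKM. Detected mesenchymal markers numbered 6 of 14 in cell 14, 5 in cell 20 and 0 to 4 in the other cells. Their summed level ran from 1.28 to 590 RPKM with a median of 172, and Pdgfra, Lum and Postn were under 1 RPKM in all 9 cells. Twist1, a mesenchymal transcription factor, was at 155 RPKM in cell 13 and 11.3 RPKM in cell 14 and under 1 RPKM elsewhere. In cell 13, the other mesenchymal marker detected was Sparc, which encodes a matrix-binding glycoprotein, at 16.2 RPKM. The summed level of the mesenchymal markers in cell 13 was the median, 172 RPKM. It was 590, 408, 286 and 175 RPKM in cells 14, 15, 20 and 17 and lower in the rest. The part of other cell types in the values of cells 13 and 14 was not tested.

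Detected markers of the remaining types ranged from genes in 1 cell to genes in 7. Lyz2, a lysozyme of myeloid cells, was detected in 6 of 9 cells and reached 1951 RPKM in cell 18, and Tyrobp, a myeloid signalling adaptor, had 513 RPKM in cell 16 and 0 elsewhere. Cd68, Fcer1g and C1qb, which define macrophages, were at 0 in all 9 cells, which, as 3 counts of 9, allows up to 33.3% of cells at 1 RPKM or more and sets no limit on cells that express the gene. Adult beta globin Hbb-bt was at 209 RPKM in cell 20 and at most 2.35 RPKM elsewhere, while Hba-a1, Hba-a2 and the embryonic globins Hbb-y and Hbb-bh1 were at 0 throughout. Vwf was detected in 7 cells, up to 865 RPKM in cell 20, while the platelet genes Pf4, Gp1ba, Gp5 and Gp9 were at 0 in every cell. Krt18 was detected in 7 of 9 cells (median 121 RPKM), and its keratin partner Krt8 was listed at 0 in all 9.

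Detection was uneven across genes. Of the 14809 genes, 601 (4.06%) were detected in all 9 cells, 3878 (26.2%) in 3 to 6 cells and 4170 (28.2%) in none, and 3192 were detected in 1 cell only. Over the 7 cells, 967 genes were detected in every cell, 4809 in none and 3157 in 1 cell only. Detection followed level: of 162 genes whose level in the cells that had them lay between 10 and 15 on the log2 scale, 84.6% were in all 9 cells, against 33.6% of 431 genes between 8 and 10, 10.5% of 1720 genes between 6 and 8 and 2.23% of 3813 genes between 4 and 6. The median level was 7.85 for genes in all cells and 0.69 for all genes. Cell 13 lacked 264 genes that every other cell had, against 6 to 69 for each of the other 8 cells.

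**Figure D2:**
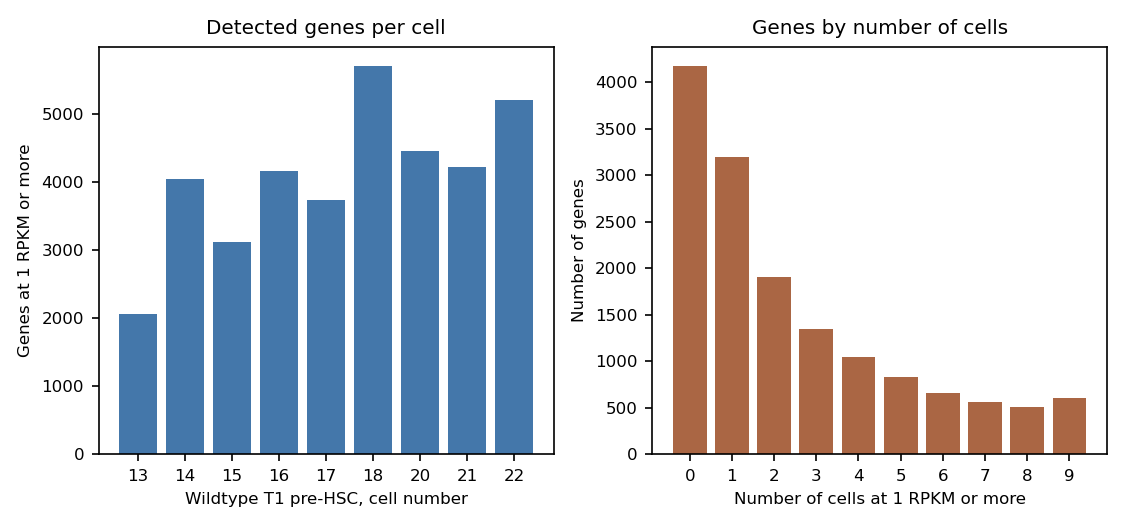
Left, number of genes at 1 RPKM or more in each of the 9 cells, as bars; right, number of genes (bars) by the number of cells in which they were detected. Cell 13 has 2060 genes and cell 18 has 5698, and the classes of 0 and 1 cell hold 4170 and 3192 genes.

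The most abundant transcripts came from the ribosome, the mitochondrial genome, ubiquitin, iron storage and the actin cytoskeleton. Among the 25 highest levels, after 2 predicted genes were passed over, 8 were cytosolic ribosomal protein genes and 5 were encoded by the mitochondrial genome. The row with the highest level, 14.52, carries only the clone name RP24-458F14.4 and ran from 11909 RPKM in cell 22 to 45931 RPKM in cell 13. It was not matched to a named gene. mt-Atp6, a subunit of the mitochondrial ATP synthase, followed at 14.16, with a lowest value of 13094, a median of 19206 and a highest of 24956 RPKM.

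Rpl41, a small protein of the large ribosomal subunit, had the highest level of the nuclear ribosomal genes, 13.25, and ran from 5872 RPKM in cell 15 to 12805 RPKM in cell 13. Rps27rt and Rps27, near-identical genes among which reads can be split, had levels of 13.10 and 12.63, and their ratio stayed between 1.24 and 1.75 over the cells. Ftl1, the ferritin light chain that stores iron, had a level of 13.05 and ran from 2315 RPKM in cell 20 to 14855 RPKM in cell 22. Cell 20 thus had the lowest Ftl1, and its Fth1, the ferritin heavy chain, was also the lowest of the 9 at 434 RPKM, against a highest value of 4375 RPKM in cell 22. Malat1, a long non-coding RNA kept in the nucleus, had a level of 12.92 and ran from 3021 RPKM in cell 16 to 15591 RPKM in cell 15.

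The other abundant genes had varied roles. Ppia, the peptidyl-prolyl isomerase cyclophilin A, had a level of 12.78, and the polyubiquitin gene Ubb had 12.56. Tmsb4x and Tmsb10, thymosins that bind actin monomers, had levels of 12.46 and 12.26. Tmsb4x spread from 2298 RPKM in cell 13 to 14150 RPKM in cell 22. H3f3b, which encodes the replication-independent histone H3.3, had 12.16. The 25 genes took 17.1 to 27.6% of the listed RPKM of a cell, cytosolic ribosomal protein genes 15.1 to 23.5% and mitochondrially encoded genes 4.60 to 9.57%. The ribosomal and mitochondrial shares leave out rows that run with these genes. Such rows are Rps27rt and, beside mt-Atp6, Gm10925 at 12685 to 23987 RPKM. Rps27rt is also outside the counts of ribosomal genes among the abundant and the constant genes. Without cells 13 and 14, 23 of the 25 stayed among the 25 highest.

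The genes of least spread were also mostly of the ribosome and of respiration. The 20 genes with the smallest SD among those in all 9 cells had SDs of 0.22 to 0.41 on the log2 scale, and the next gene outside had 0.41. Of these 20, 9 were cytosolic ribosomal protein genes and 4 were encoded in the mitochondrial genome, and 6 predicted or clone-named genes were passed over. For comparison, the median SD of all genes in 9 cells was 1.09 and that of genes in 3 to 6 cells was 2.51. These genes were selected for small spread, so their SDs are a description.

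Uqcr11, a small subunit of respiratory complex III, ran from 1424 RPKM in cell 15 through a median of 1769 to 2364 RPKM in cell 21, a level of 10.81 (SD 0.24). Rps3a1, a protein of the small ribosomal subunit, lay between 756 and 1547 RPKM, a level of 10.09 (SD 0.33). Smarcd1, a subunit of the SWI/SNF chromatin remodelling complex, lay between 56.1 and 132 RPKM, a level of 6.33 (SD 0.34). Cells 13 and 14 were among the cells used for this choice. Over the other 7 cells, 10 of the 20 genes stayed among the 20 of smallest SD.

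The upstream bases of 4 of the even genes are shown for comparison with the identity genes above, again from RefSeq on GRCm38.p6 with motif matches in capitals. Uqcr11, Rpl41 and Rps3a1 held the ETS core CCGGAAG, Rpl41 also held the GC box on the other strand, and Rps27 held none of the 4 motifs here.
Uqcr11, chr10:80406822-80406921, minus strand: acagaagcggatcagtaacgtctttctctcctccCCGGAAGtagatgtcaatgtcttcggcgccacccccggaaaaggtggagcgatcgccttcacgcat
Rpl41, chr10:128549169-128549268, minus strand: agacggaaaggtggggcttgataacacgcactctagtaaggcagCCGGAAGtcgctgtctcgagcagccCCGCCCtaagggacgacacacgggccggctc
Rps3a1, chr3:86142669-86142768, minus strand: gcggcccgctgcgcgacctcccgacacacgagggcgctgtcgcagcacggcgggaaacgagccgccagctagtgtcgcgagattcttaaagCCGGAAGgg
Rps27, chr3:90213649-90213748, minus strand: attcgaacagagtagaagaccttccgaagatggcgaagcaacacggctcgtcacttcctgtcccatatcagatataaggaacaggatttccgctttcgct

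Over the 250 bases upstream of each start, CCGGAAG was in 6.91% of all 32851 RefSeq windows and in 16.4% of the 456 windows of genes detected in all 9 cells, of which 365 of 601 genes matched a window. It was in 26.8% of the 71 windows of cytosolic ribosomal protein genes, 17.9% of those of on/off genes (defined below), 8.37% of those of genes in no cell and 6.52% of the 46 windows of endothelial and surface genes. GGGCGG was in 32.7% of all windows and 54.6% of those of genes in all cells, but also in 46.7% of those of genes in no cell. TATAAA was in 12.4% and 7.89%, and CCAAT in 33.8% and 34.9%, of all windows and of those of genes in all cells. In windows of genes in no cell, TATAAA was in 8.15% and CCAAT in 33.2%. In windows of on/off genes, the shares were 5.92% for TATAAA, 39.0% for CCAAT and 58.8% for GGGCGG. A match is a string of letters in a window and was not tested as a binding site.

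**Figure D3:**
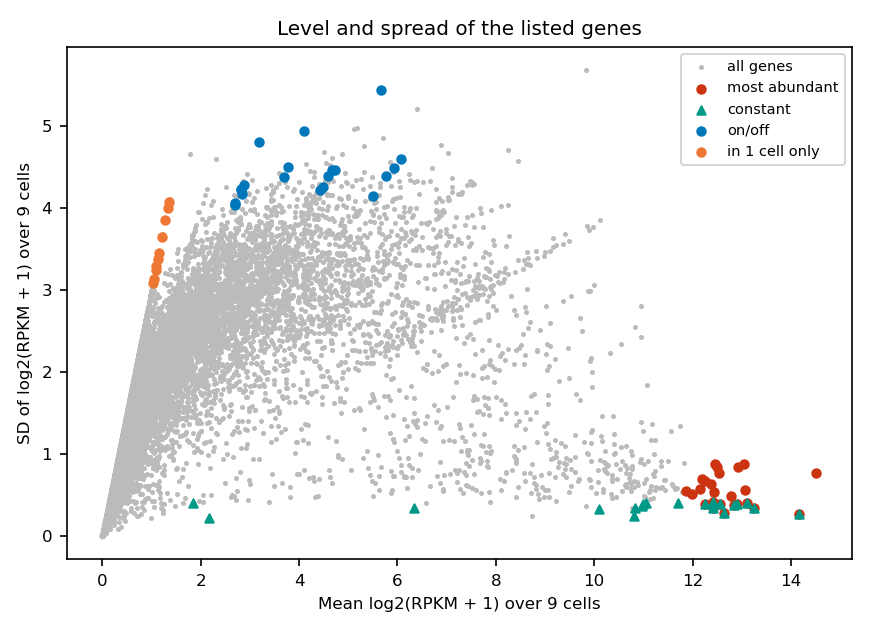
Level (x, mean of log2(RPKM + 1) over 9 cells) against spread (y, SD over the 9 cells) for each gene, with the named abundant, constant, on/off and 1-cell genes in colour. Constant genes lie at the bottom with SDs of 0.22 to 0.41, mostly at the right, and on/off genes lie at the top with SDs of 4.04 to 5.44.

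Some genes were even at low level. Pdss2, which encodes a subunit of the enzyme that makes the coenzyme Q side chain, had the smallest SD among the genes named, 0.22, at a level of 2.16, and lay between 2.79 and 4.54 RPKM in all 9 cells. Epha5, an ephrin receptor best known from neurons, lay between 1.25 and 4.75 RPKM in all 9 cells, a level of 1.84 (SD 0.40). Altogether 20 genes were in all 9 cells without reaching 20 RPKM in any, 7 of them predicted genes or clone names. They included Ctla4, a T cell checkpoint receptor, at 3.38 to 11.6 RPKM, Myo3a, a myosin of sensory hair cells, at 1.90 to 7.61 RPKM, and Numb, an inhibitor of Notch, at 1.17 to 14.5 RPKM. Their median SD was 0.50, and 2285 genes with levels between 1.5 and 3 had a median SD of 2.62 and a median of 4 cells detected. Cells 13 and 14 also held these transcripts. These 20 genes were chosen after their values were seen. The choice requires all 9 cells, 13 and 14 included, and bounds the spread from above. Neither their detection nor their smaller SD is therefore a result about these genes.

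On/off genes were defined as genes detected in 3 to 6 of the 9 cells with a gap of at least 3 on the log2(RPKM + 1) scale between the lowest cell with the gene and the highest cell without it. There were 1134 such genes, 7.66% of all genes and 29.2% of those in 3 to 6 cells, and 827 over the 7 cells. The gap reached 7 or more in 44 genes. The 20 widest gaps named held no member of any of the 25 gene lists described below. The share of list members among the 1134 on/off genes is not given here, so this is not a result about the lists. Listed cytosolic ribosomal and mitochondrially encoded genes could not be among the 20, as none was in 3 to 6 cells. In this ranking, 6 predicted or clone-named genes were passed over.

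The widest gap, 9.19, was that of Pop5, a protein of the RNase P and RNase MRP complexes. It was at 634, 1192 and 583 RPKM in cells 14, 21 and 22 and at 0 in the other 6 cells. Chchd7, a protein of the mitochondrial intermembrane space, was at 357 to 3994 RPKM in 5 cells and at most 0.00983 RPKM in the other 4. Its highest values were in cells 13 and 20, at 3994 and 1662 RPKM. Renbp, a renin-binding epimerase, was likewise highest in cell 13, at 2669 RPKM, was detected in cells 14, 18 and 20 and was under 0.05 RPKM in the rest. Glrx2, a mitochondrial glutaredoxin, was detected in 6 of 9 cells at 248 to 986 RPKM and was under 0.003 RPKM in cells 13, 14 and 21.

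Several of the 20 serve housekeeping roles. Mrps24 and Mrps16, proteins of the mitochondrial ribosome, were detected in 5 and 4 cells, with highest values of 505 and 386 RPKM. Acadvl, which oxidises very long chain fatty acids, was detected in 5 cells at 217 to 341 RPKM and was at 0 in the others. Dpy30, a core subunit of the histone H3K4 methyltransferase complexes, was detected in 6 cells at 240 to 857 RPKM. Brd2, a bromodomain protein that reads acetylated histones, was at 864 RPKM in cell 15, at 246 and 240 RPKM in cells 18 and 22, and at most 0.273 RPKM in the others. Each of the 9 on/off genes described here was on in a different set of cells. The number of the 20 that a cell held ran from 4 in cell 13 to 16 in cell 22, and the cells with most detected genes, 18 and 22, held 14 and 16.

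**Figure D4:**
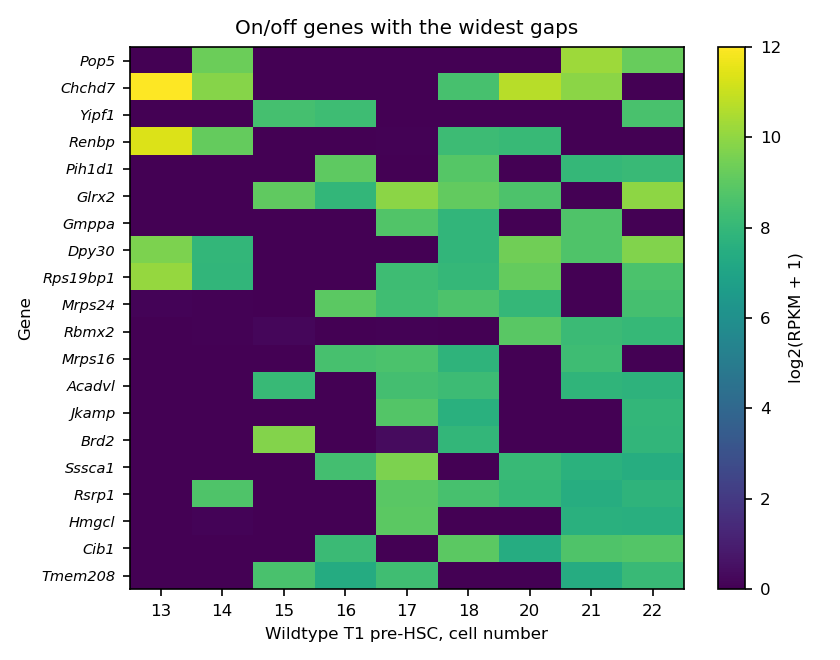
Level of the 20 on/off genes with the widest gaps in each of the 9 cells, as log2(RPKM + 1) by colour. Pop5, in the top row, is on in cells 14, 21 and 22, and cell 13 holds 4 of the 20.

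At the far end were genes held by 1 cell, of which 309 reached 100 RPKM or more. The highest were the mitochondrial transfer RNAs mt-Tt (4707 RPKM in cell 22), mt-Tl1 (4092 RPKM in cell 16) and mt-Tp (3007 RPKM in cell 18), which are short genes. Lin37, a subunit of the DREAM complex that represses cell cycle genes, followed at 1979 RPKM in cell 13. Ch25h, cholesterol 25-hydroxylase, was at 933 RPKM in the same cell, and Mus81, a DNA repair endonuclease, at 663 RPKM in cell 14. Each was under 0.04 RPKM in the other 8 cells.

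Gene lists were ordered by the median level of their listed members, beside 0.69 for all genes. Ribosomal and mitochondrially encoded genes came first: 45 of 48 large-subunit genes (median level 10.73) and 31 of 33 small-subunit genes (10.77) were in all 9 cells, against 4.06% of all genes, and over the 7 cells all of both were. Of 15 mitochondrially encoded genes, 13 were in all cells (10.74), and 14 over the 7 cells. Nuclear genes of oxidative phosphorylation had a median of 8.41, with 47 of 78 in all cells and 58 over the 7. Atp5k, a subunit of the ATP synthase, led them with a median of 3581 RPKM (2176 to 6504), and Ndufb8, of complex I, spread most among the highest, from 401 RPKM in cell 15 to 9387 RPKM in cell 13. Cox6a1, a subunit of complex IV, was among the least even, at 0 in cells 13 and 20 and up to 2821 RPKM in cell 22.

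Glycolysis genes stood much lower, at a median of 2.81, with only Gapdh of 19 in all 9 cells and 3 genes in all 7. Gapdh, the glyceraldehyde phosphate dehydrogenase often used as a reference gene, ran from 4.30 RPKM in cell 17 and 8.05 RPKM in cell 15 to 1720 RPKM in cell 13, a level of 8.14 (SD 3.09). Ldha, which makes lactate, was at 0.843 RPKM in cell 15 and between 220 and 779 RPKM in the other 8. Eno1, an enolase, was at 0.343 RPKM in cell 15, with a median of 170 and a highest value of 756 RPKM in cell 14. In cell 15 the summed level of the 19 genes was 357 RPKM, against 1817 to 3497 RPKM in the other cells. Hk2, a hexokinase, was detected in 4 cells and reached 177 RPKM in cell 20.

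Machinery of protein synthesis and turnover lay between. The median level was 6.58 for proteasome subunits (11 of 36 in all cells), 6.39 for iron, redox and antioxidant genes (9 of 23), 6.28 for cytoskeletal genes (16 of 40), 6.12 for translation factors (12 of 33), 6.08 for chaperones (13 of 35) and 6.01 for splicing factors (15 of 38). Over the 7 cells, the members in every cell numbered 20, 13, 22, 18, 23 and 19 in the same order of lists. Psma7, a core proteasome subunit, lay between 651 and 2235 RPKM, and Eef1a1, the elongation factor that carries transfer RNA to the ribosome, between 606 and 2367 RPKM. Hspa8, a constitutive heat shock protein, lay between 388 and 1266 RPKM. Cell 13 held fewest of some of these lists: 16 of 36 proteasome subunits, against 24 to 33 in the other cells, and 15 of 35 chaperones, against 25 to 34, while of 38 splicing factors cell 15 held 24 and cell 13 held 25. Hsp90ab1, the constitutive HSP90, was at 7.56 RPKM there and at 567 to 1592 RPKM in the other 8 cells. Chromatin and histone genes had a median of 4.85, with 12 of 36 in all cells (13 over the 7), among them the variant histone H2afz at 543 to 2791 RPKM.

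**Figure D5:**
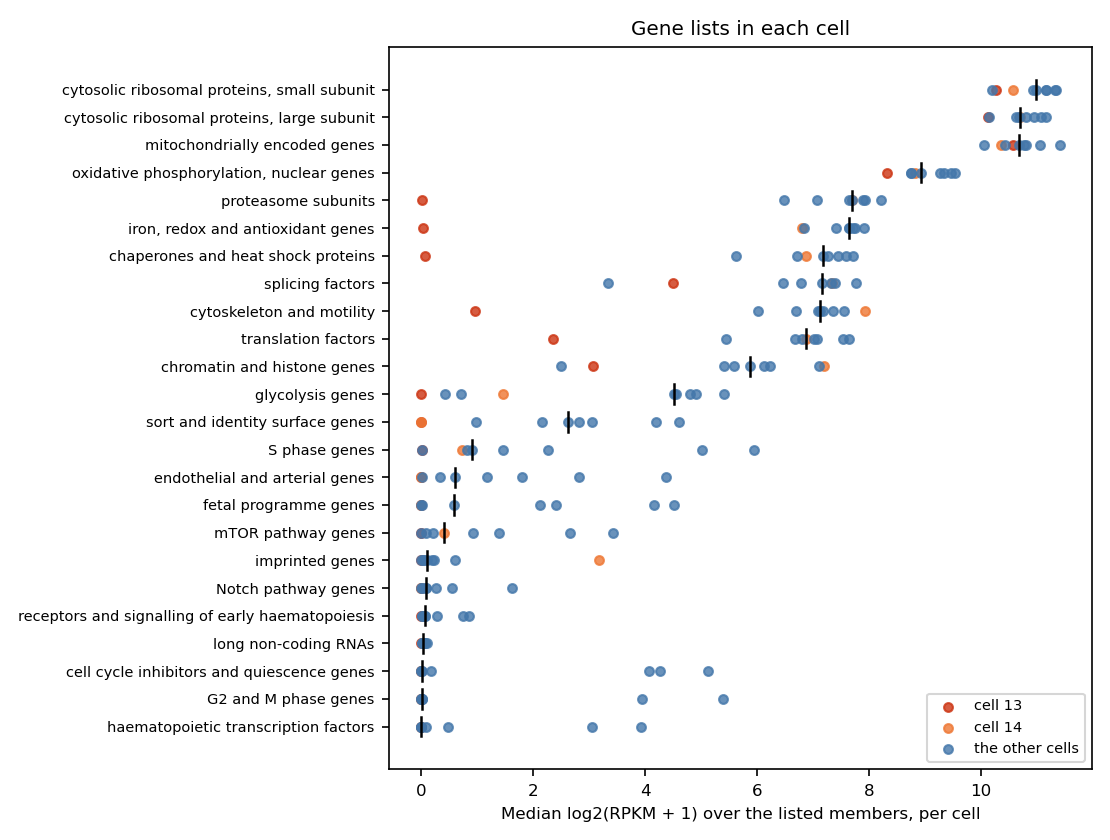
For each gene list (rows), the median of log2(RPKM + 1) over its listed members in each cell (x); points are cells, with cells 13 and 14 in their own colours, and the black bar is the median over the 9 cells. The ribosomal and mitochondrial lists lie above 10 in every cell, and cell 13 is near 0 for proteasome, redox and chaperone genes.

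Cell cycle genes varied from cell to cell. The 32 genes of G2 and M phase had a median level of 1.48, with Cks1b, a cyclin-dependent kinase subunit, as the only one in all 9 cells (66.0 to 1365 RPKM), and 2 were in all 7. Cell 15 held 23 of the 32 and cell 20 held 20, with medians over the list of 5.39 and 3.95, while the other 7 cells held 8 to 14 with medians of at most 0.02. Birc5, the survivin gene of the chromosomal passenger complex, was at 915 RPKM in cell 15 and 490 RPKM in cell 20 and at most 3.20 RPKM elsewhere. Ccnb1, the mitotic cyclin B1, was at 225, 76.3, 154 and 49.7 RPKM in cells 13, 14, 15 and 20 and under 1 RPKM in the rest. For the 29 S phase genes (median 2.73, none in all 9 cells and 3 in all 7), the order was another: cell 20 held 22 and cell 15 held 7, the fewest. Pcna, the sliding clamp of DNA polymerase, was at 4.02 RPKM in cell 15, 798 RPKM in cell 20 and 0 in cell 13, with a highest value of 874 RPKM in cell 17.

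Of 16 cell cycle inhibitors and quiescence genes, 1 was in 9 cells, 3 in 7 or 8 cells, 7 in 3 to 6 and 4 in 1 or 2. Cdkn1c, which encodes the kinase inhibitor p57 and is imprinted, was the one in all 9 cells, and 1 was in all 7, with a lowest value of 14.6, a median of 73.9 and a highest of 325 RPKM in cell 18. Cdkn1a, which encodes p21, was detected in cells 18, 20 and 22 at 31.6, 189 and 92.3 RPKM and was at 0 in the other 6. Gadd45g, a stress-response gene, was detected in 7 cells and reached 1529 RPKM in cell 21. Cell 18 held 13 of the 16 and cell 20 held 10, and cell 20 also held most S phase genes.

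Imprinted genes had a median level of 1.62, with 4 of 29 in all cells: H19, Igf2, Gnas and Cdkn1c, and 5 were in all 7. Igf2, the fetal growth factor, had a median of 335 RPKM and a lowest value of 1.49 RPKM in cell 13, and the other 8 cells lay between 169 and 516 RPKM. H19, the non-coding RNA that neighbours it, was in all 9 cells at 231 to 1261 RPKM with a median of 477, and was at 903 RPKM in cell 13. In cell 13 H19 was therefore the second highest of the 9 while Igf2 was the lowest. Gnas, a G protein subunit, lay between 45.3 and 254 RPKM. Nnat, neuronatin, was at 614 RPKM in cell 14 and at most 2.41 RPKM elsewhere, and cell 14 held 18 of the 29 imprinted genes, against 8 to 13 in the other cells.

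Other fetal genes were present. Hmga2, a chromatin protein of fetal stem cells, was in all 9 cells with a lowest value of 2.84, a median of 61.8 and a highest of 171 RPKM in cell 14. Igf2bp1, which binds Igf2 messenger RNA, was detected in 6 cells at 6.62 to 21.9 RPKM. Mycn, a Myc family factor, was detected in 4 cells and reached 60.4 RPKM in cell 21. Hmga2 and Igf2 were in all 9 cells, and 2 of the 15 listed genes were in all 7.

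The transcription factors of blood were unevenly detected, with a median level of 1.42, beside 0.69 for all genes. None of 37 was in all 9 cells, beside 4.06% of all genes, and 4 were in all 7. Klf6, a zinc finger factor, had the highest level, was at 0 in cell 13 and lay between 32.5 and 153 RPKM in the other 8 cells. Hoxa7 was detected in cells 15, 18 and 22 at 130, 29.9 and 40.1 RPKM. Hhex, a homeobox gene of early blood and endothelium, was detected in 5 cells, up to 129 RPKM in cell 15. Cell 18 held 27 of the 37 and cell 22 held 21, the cells with the most detected genes, while cells 13 and 14 held 3 and 6 and the remaining 5 held 9 to 14.

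Signalling genes had median levels of 1.18 for the Notch pathway, 1.32 for receptors and signalling of early haematopoiesis and 1.69 for the mTOR pathway. These lie above the 0.69 of all genes. Members in all 9 cells numbered 1 of 22, 0 of 34 and 1 of 26, beside 4.06% of all genes, and over the 7 cells 1, 0 and 2. Of the Notch genes, Psenen, a subunit of gamma-secretase, was detected in 6 cells at 156 to 549 RPKM, and Mfng, which adds sugars to Notch receptors, in 6 cells at 76.5 to 228 RPKM. Hes1, a Notch target, was detected in 7 cells with a median of 20.4 and a highest value of 112 RPKM in cell 14. Id1 and Id3, inhibitors of DNA binding that respond to BMP signals, were highest in cells 13 and 14, each with 2 of 11 T1 markers detected. The share of all genes that were highest in these cells is not given here. Id2, of the same list, was at 701 and 580 RPKM in cells 13 and 14 and between 0.745 and 570 RPKM in the other 7. Id1 was at 1764 and 1045 RPKM in cells 13 and 14 and between 0 and 554 RPKM in the other 7. Id3 was at 2059 and 1745 RPKM in cells 13 and 14 and between 0.755 and 569 RPKM in the other 7. Without those cells the mean level of Id3 was 6.64 rather than 7.58. In the mTOR pathway, Rheb, the small GTPase that activates the kinase, was in all 9 cells (3.67 to 393 RPKM), and the scaffold gene Lamtor2 was in 8, with 0 in cell 13 and 1120 RPKM in cell 14.

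Of 31 listed long non-coding RNAs, Malat1, Gas5, H19 and Snhg6 were in all 9 cells, 4 were in all 7, and the median level of the list was 1.14. The values of Gas5, a host gene of small nucleolar RNAs, were 34.2 and 511 RPKM in cells 13 and 14. In the other 7 cells Gas5 lay between 3240 and 6743 RPKM. The share of all genes that split the cells in this way is not given here. The level of Gas5 was 10.96 (SD 2.43) over 9 cells and 12.07 (SD 0.37) over 7. Snhg3 and Snhg9, further host genes, were detected in 5 cells each, with highest values of 711 and 2125 RPKM, both in cell 22. Hotairm1, from the HoxA cluster, was detected in 4 cells and reached 283 RPKM in cell 15, which was also the cell with the highest Hoxa7.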

How the data were processed

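RNA of single T1 pre-HSCs was analysed from the authors' deposited table, which holds RPKM per gene and cell. The submitters' processing notes name Cufflinks 2.1.0 and build mm10. Which aligner and annotation were used, and how multi-mapping reads were counted, is not given in the sources used here. Whole reads cannot be recovered from these estimates, so depth is unknown. RPKM divides by each cell's total, so a few abundant genes lower all other values of a cell, and near-identical genes can split reads. Doublets were not called.

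Columns were assigned by cell number. The column of cell 19 was dropped: in 24 of 29 stretches of 500 rows it followed the other cells best when shifted, against 0 stretches in the 9 cells used, and 24 rows ahead of the alphabetical order were left out. Values were used as log2(RPKM + 1), with a pseudocount of 1, from the deposited RPKM. Per gene, the mean, SD, cells at 1 RPKM or more and gap between cells were computed in Python 3.11.15 with pandas 2.3.3, and the calculation was tested on simulated data. Shares given with an interval carry an exact Clopper-Pearson 95% interval. Without replicate samples, groups were not tested, and a check for a cell apart from the rest used Dixon's ratio over cells.

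Named are the 25 most abundant, 20 most constant, 20 on/off genes of widest gap and 10 genes of 1 cell, the sort, identity and sex-linked genes, H19 and Igf2, and up to 6 high and 4 variable members per list; predicted, Rik and -ps names were passed over. Some of these genes are not reported here, and the genes even at low level were added. Members and lists were chosen with earlier results of these data known. Promoter windows came from RefSeq on GRCm38.p6; of the listed genes, 13122 (88.6%) matched RefSeq by symbol. Alternatives changed the pseudocount, detection threshold, scaling, summary, filter, cells and rows. The KO cells, adult HSCs and methylation libraries were not analysed here.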

Additional observations from a re-analysis of the deposited data

Results flagged for a closer look

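In total, 151 genes and per-cell measures were tested for a cell apart from the rest. In 26, all genes, the lowest cell's distance to the next cell, on the log2(RPKM + 1) scale, exceeded 0.493 of the whole range. Chance alone gives about 1 such result in 20 where values are normally spread, which was not tested here. The genes share cells, so they are not independent. In all 26 the cell apart was the lowest, and in 10 it was cell 13, the cell with the fewest detected genes. The genes tested were mostly chosen for a high or even level and were detected in most cells. That choice leaves little room for a lone high cell, so the side is not a result about these genes. The values below are RPKM in the lowest cell, with the next lowest cell in brackets.

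In cell 13 the values were Eif3k 6.02 (next 255), Gas5 34.2 (next 511), Gpx4 0 (next 431), Hsp90aa1 36.1 (next 234), Hsp90ab1 7.56 (next 567), Igf2 1.49 (next 169), Klf6 0 (next 32.5), Psmb6 0 (next 856), Rpl13a 345 (next 2806) and Rps19 1558 (next 4327). These include the heat shock proteins Hsp90aa1 and Hsp90ab1, the growth factor Igf2 and the lipid peroxide reductase Gpx4. In cell 15 they were Anp32b 0.772 (next 212), Ldha 0.843 (next 220), Mif 3.32 (next 1052), Ndufb8 401 (next 2179), Npm1 242 (next 978), Rpl31 1107 (next 1848), Rpl41 5872 (next 8779) and Snhg6 5.90 (next 200). Cell 15 was thus apart for Ldha, the lactate dehydrogenase, and for Mif, a cytokine.

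In cell 16 they were Fau 1096 (next 2650) and Psmb1 76.1 (next 426). In cell 17 they were H2afv 8.95 (next 318) and Snrpd2 6.91 (next 368). Cell 20 was apart for Cox5b 720 (next 1939) and Id3 0.755 (next 79.1), cell 18 for Hmgn2 677 (next 1335) and cell 14 for Rps29 1816 (next 4552). Many of these lowest values were still high: Rpl41 had its lowest value at 5872 RPKM.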

How the results depend on the processing

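No paired analysis was possible because the cells of 1 group were described without a test. The number of genes in every cell, 601, was 1464 over cells at or above the median number of detected genes, 341 with cell 19 as deposited, 967 without cells 13 and 14, and 607 to 865 leaving out each cell in turn, where fewer cells must each hold the gene. On/off genes, 1134, numbered 2636 with a pseudocount of 0.1 and 121 with 10, because the gap is set on that scale, 648 with detection at 0.1 RPKM, 698 with cell 19, and 987 to 1064 leaving out each cell. Of the 25 most abundant genes, 20 to 25 stayed under all alternatives, and 24 or 25 leaving out each cell. The list of constant genes was the least stable: of 20, 10 stayed with a pseudocount of 10, 9 with detection at 0.1 RPKM, 5 with the median absolute deviation, 8 over cells at or above the median number of detected genes, 5 with cell 19, 10 without cells 13 and 14 and 12 to 17 leaving out each cell. The causes were not tested. Detected genes per cell, a median of 4160, were 5237 at 0.1 RPKM and 4100 to 4192 leaving out each cell. Without cells 13 and 14, the level of Egfl7 moved from 8.46 to 10.71, that of Cldn5 from 6.44 to 8.18 and that of Procr from 6.13 to 7.66. Depth is unknown, so absence and failed detection of a gene in a cell cannot be told apart.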

Other observations

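Sex-linked transcripts differed between cells. Xist, the RNA that coats the inactive X chromosome, was at 74.1 RPKM in cell 13 and 15.8 RPKM in cell 17 and under 0.1 RPKM in the other cells. Kdm5d, on the Y chromosome, was at 132 RPKM in cell 14. Ddx3y was detected in cells 16, 18, 20, 21 and 22, with a highest value of 39.4 RPKM in cell 21, and Eif2s3y in cells 20 and 22 at 77.5 and 35.1 RPKM. No cell held both Xist and a Y-linked gene at 1 RPKM or more, and cell 15 held neither. This rests on the cut, as Ddx3y was at 0.756 RPKM in cell 17 and 0.455 RPKM in cell 15.

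Some rows of the table run in near-constant ratio in every cell. Gm10925, a RefSeq pseudogene, was at 0.958 to 0.971 of mt-Atp6, Gm28437 at 0.939 to 0.984 of mt-Co3 and Gm28661 at 0.945 to 0.992 of mt-Co2. Gm9844 was at 0.530 to 0.619 of Tmsb10. Values of these genes can hold reads of the other row.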
